A study of Danio rerio with 30 samples.

Results

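The genes described here are the Hox cluster genes of the zebrafish embryo, taken as every feature whose symbol is hox, a cluster letter from a to d, a paralogue number and a copy letter. The rule found 48 genes among 26847 distinct gene symbols. All 48 are listed in the RefSeq annotation of zebrafish, in 7 chromosomal clusters: 6 genes in hoxaa, 5 in hoxab, 11 in hoxba, 4 in hoxbb, 11 in hoxca, 4 in hoxcb and 7 in hoxda. All 48 had at least 20 UMIs (unique molecular identifiers, each standing for 1 captured transcript) at 12 hours post fertilization (hpf), and 37 had at least 1000. At 8 hpf 41 of them had at least 20 UMIs.

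Hox genes code for homeodomain transcription factors that lie in chromosomal clusters and give cells along the head-to-tail axis their positional identity. Genes are numbered by paralogue group: low numbers mark the hindbrain and neck region, middle numbers the trunk, and the highest numbers the tail. Within a cluster the low-numbered genes are generally switched on earlier and further forward than the high-numbered ones, an order called collinearity, and retinoic acid, Fgf and Wnt signals acting partly through Cdx proteins set it. Zebrafish carry duplicate clusters from a whole-genome duplication in the teleost lineage, so several members exist as an a and a b copy.

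The study profiled whole TL/AB embryos, about 30 pooled per library, with 10x Genomics 3' V3 single-cell RNA sequencing. It addressed 4 transcription factors of the unfolded protein response, xbp1, atf6, creb3l1 and creb3l2, which adjust the secretory machinery. Loss of these factors was profiled at 12 hpf, and injected mRNA at 8 hpf.

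The 16 libraries at 12 hpf form 12 groups. The controls are tyr crispant (2 libraries, targeting a pigment gene) and uninjected wild-type (2). Single losses are xbp1 crispant, atf6 crispant, creb3l2 crispant and creb3l1 crispant (1 each) and creb3l1 homozygous mutant (2). Combined losses are xbp1+atf6 double crispant and, in creb3l1 mutants, creb3l2 crispant, atf6+creb3l2 double crispant and xbp1+creb3l2 double crispant (1 each) and the xbp1+atf6+creb3l2 triple crispant (2, called the quadruple loss below). Crispants are embryos injected with Cas9 and guide RNA at the 1-cell stage, so their cells can carry different edits. The 6 libraries at 8 hpf are 1 per group: nls-mCherry 125 pg, creb3l2-full 40 pg, and, all in xbp1 crispants, NLS-mCherry, atf6-N, creb3l1-N and creb3l2-N at 40 pg each. A further 8 libraries of the series are not analysed here.

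After filtering, 62385 of 71539 barcodes were kept at 12 hpf and 19021 of 26062 at 8 hpf. Levels are given as CPM, the UMIs of a gene per 1000000 UMIs of the same library and, where a class is named, of that class. Total UMIs per library ran from 3.77e+07 to 1.21e+08 at 12 hpf and from 4.06e+07 to 1.01e+08 at 8 hpf. The 12 hpf libraries fall into a set A and a set B of 8 libraries each by a letter in the deposited file names, with median UMIs per cell of 11550 to 14263 in A and 17831 to 21638 in B. No pair of libraries shared more than 16 barcodes. Transcripts of xbp1 stood at 130 to 257 CPM in the 4 libraries of xbp1 crispants at 8 hpf and at 425 and 715 in the others. Cells were clustered without the Hox genes and named from marker lists: 48065 cells fell in 26 named classes at 12 hpf, and 7497 (39.4%) in named classes at 8 hpf, where 10 of 49 clusters came to at least 95% from 1 library. The targeted transcript was lower where it was targeted for xbp1 (189 ± 62.8 against 385 ± 50.0 CPM, SD, n = 5 and 11), atf6 (9.67 ± 2.44 against 47.4 ± 10.2, n = 5 and 11) and creb3l2 (5.23 ± 1.19 against 17.2 ± 2.92, n = 6 and 10). It was not lower for creb3l1 (9.32 ± 3.42 against 7.85 ± 0.587 CPM, n = 8 and 8), so creb3l1 loss rests on the labels. Each UMI marks 1 transcript end, so levels were not divided by gene length. Levels by class are given for the 21 classes with at least 20 cells in every library, and "highest" below means among these.

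At 12 hpf Hox transcripts were most abundant in the tail and trunk and lowest in the head. Over the 4 control libraries the 48 genes summed to 3722 ± 424 CPM (SD, n = 4) in the tailbud, the growth zone that lays down the body axis. Posterior neural cells followed with 2860 ± 334 CPM, presomitic mesoderm, the unsegmented precursor of the somites, with 2786 ± 332, and pronephros, the embryonic kidney, with 2672 ± 442. Those 3 classes did not differ beyond their spread. Next came notochord (1884 ± 478), endoderm (1704 ± 129), neurons (1544 ± 114), cardiac and lateral plate mesoderm (1345 ± 425), floor plate (1223 ± 173) and somite (1028 ± 315).

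The hindbrain summed to 497 ± 72.2 CPM and the neural crest to 343 ± 67.6. Forebrain and midbrain classes, hatching gland and head mesenchyme lay between 88.6 and 169 CPM. Some head values varied widely between libraries: the eye field summed to 129 ± 124 CPM and ranged from 24.4 to 296 over all 16 libraries. The part of free RNA and of misplaced cells in these low sums was not tested. Cells were named from other genes of the same cells, so these levels describe the classes and carry no test.

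**Figure D1:**
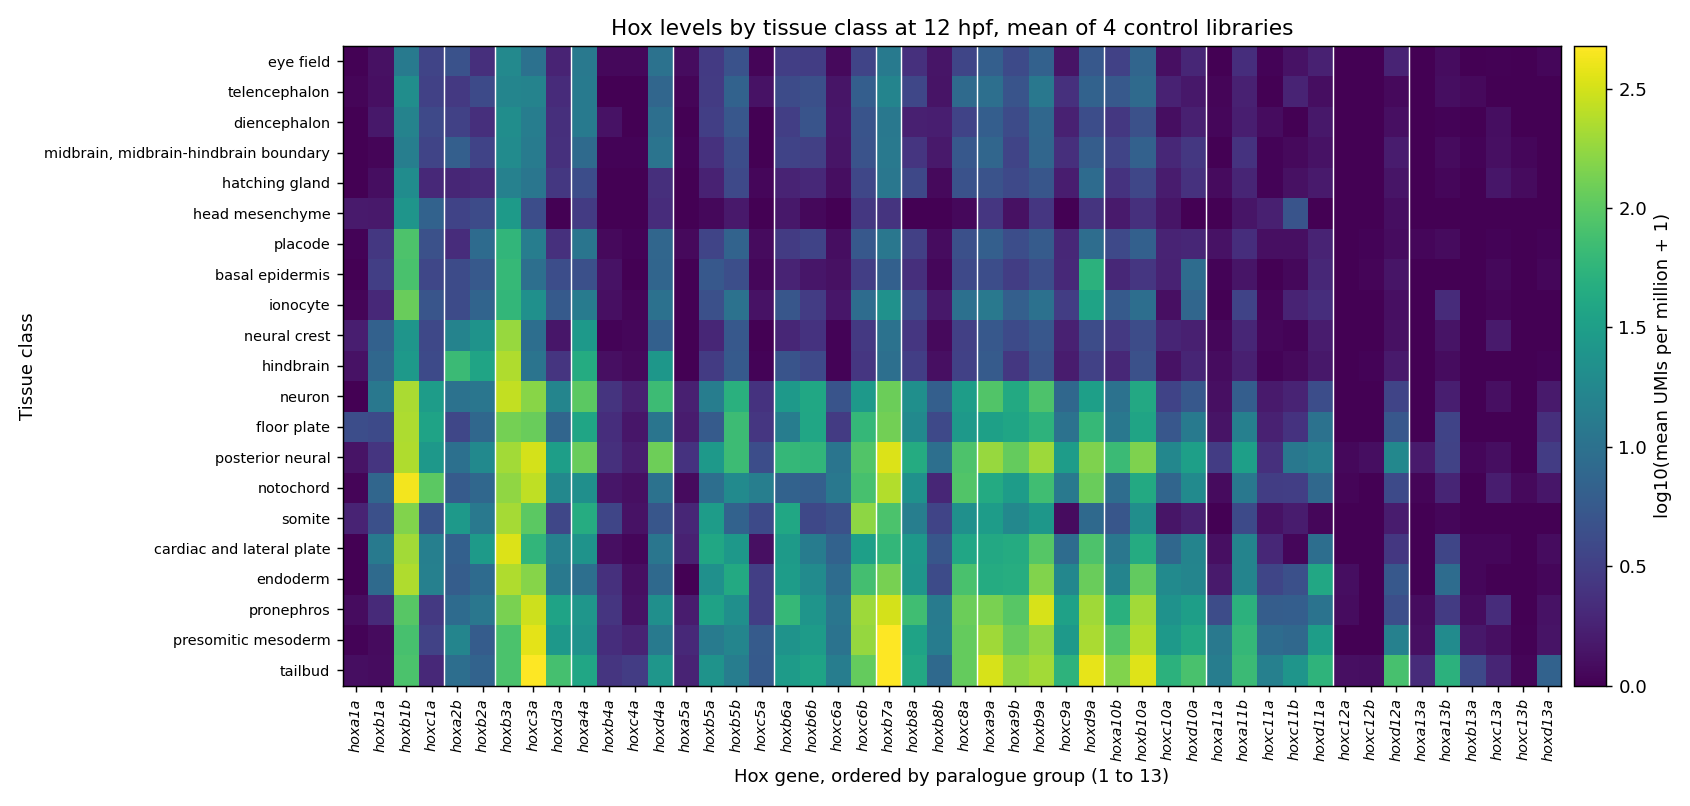
Level of each of the 48 Hox genes (columns, ordered by paralogue group, white lines between groups) in each of 21 cell classes (rows) at 12 hpf, coloured by log10(mean CPM + 1) over the 4 control libraries. Trunk and tail classes in the lower rows carry most members, with tailbud summing to 3722 CPM, and head classes in the upper rows carry few.

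The mean paralogue number of the Hox UMIs was highest in tail classes and low in the hindbrain and neural crest. It was 7.59 ± 0.19 in tailbud, 7.19 in presomitic mesoderm, 6.97 in pronephros and 6.15 in posterior neural cells. Endoderm lay at 5.93, cardiac and lateral plate mesoderm and floor plate at 5.17, neurons at 4.86, notochord at 4.63 and somite at 4.46. Neural crest reached 3.46 and hindbrain 3.23. Head classes with few Hox UMIs ranged from 3.51 ± 0.71 in head mesenchyme to 5.50 in the eye field.

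Counting members at 5 CPM or more and at least 3 times their highest mean in 4 head classes (eye field, telencephalon, hatching gland, head mesenchyme) gave 30 in tailbud, 30 in posterior neural, 28 in presomitic mesoderm, 27 in pronephros, 26 in endoderm, 25 in cardiac and lateral plate, 25 in neurons, 24 in notochord, 22 in floor plate and 13 in somite. The hindbrain had 5 by this count and the neural crest 4. This cutoff was set after the levels had been seen.

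**Figure D2:**
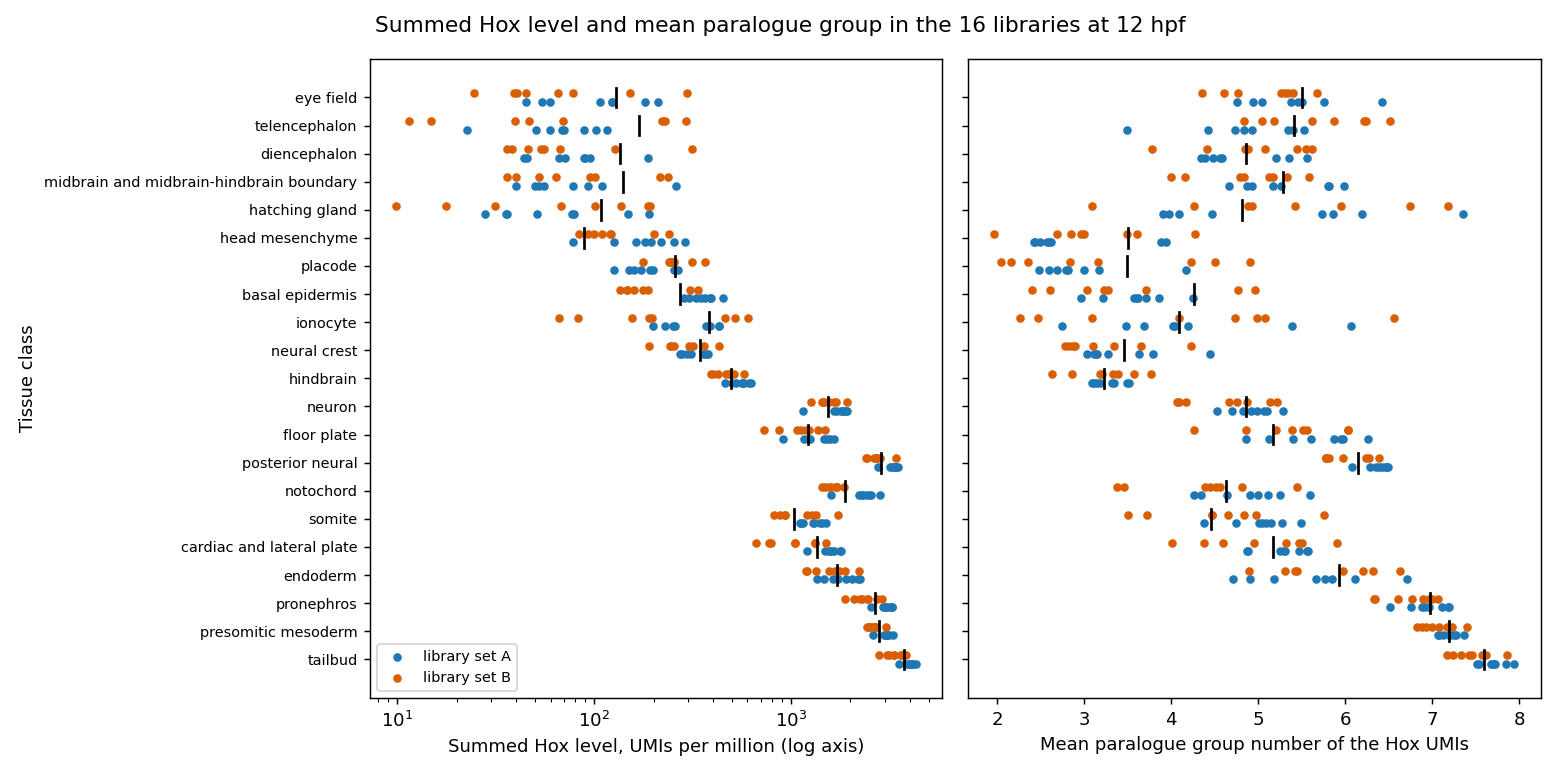
Summed Hox level in CPM (left, log axis) and mean paralogue number of the Hox UMIs (right) per class at 12 hpf, 1 point for each of the 16 libraries, coloured by library set, with a black bar at the mean of the 4 control libraries. Tailbud has the highest bar in both panels, at 3722 CPM and a mean number of 7.59, and hindbrain the lowest mean number, at 3.23.

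Among the anterior genes, hoxb1b had the highest mean of all members in notochord, endoderm, floor plate, ionocytes, basal epidermis and placode, though in endoderm hoxb3a (226 ± 43.7 CPM) differed from it by less than the spread. It is an early hindbrain patterning gene of paralogue group 1. Its annotated span overlaps those of hoxb5b and hoxb6b, so its UMIs may include theirs. In notochord the 4 control libraries gave 481, 504, 404 and 333 CPM, and over all 16 libraries the lowest, median and highest values were 232, 430 and 581. The level was 229 ± 30.7 CPM in endoderm and 222 ± 84.0 in floor plate, and lower in ionocytes (115 ± 30.1), placode (84.2 ± 32.7) and basal epidermis (79.6 ± 24.0). In the surface classes, ionocyte and basal epidermis, only hoxb1b, hoxd9a and hoxd10a passed the count above, and in placode only hoxb1b. hoxb3a came second to hoxb1b in each of these classes but missed the count, as its highest mean in the head classes was 28.1 CPM. It had 61.8 ± 24.7 CPM in basal epidermis, 58.0 ± 24.2 in ionocytes and 57.1 ± 10.1 in placode. hoxb1a, the copy known for rhombomere 4 identity, stayed at 6.79 ± 2.12 CPM in hindbrain. hoxc1a, also of group 1, was highest in notochord with 100 ± 12.8 CPM.

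The hindbrain was led by hoxb3a, a group 3 gene of the posterior hindbrain. Its control values there were 244, 245, 200 and 223 CPM, and over 16 libraries 175, 228 and 296 (lowest, median, highest). hoxa2b, which patterns the second pharyngeal arch, was highest in hindbrain, with 87.3, 56.6, 47.5 and 72.1 CPM in the controls. hoxa4a followed with 43.8 ± 14.2 CPM and hoxb2a with 35.3 ± 3.04. Together with hoxb1a these were the 5 members over the head level in hindbrain, all of groups 1 to 4. Neural crest, the migratory cells that build much of the face, was also led by hoxb3a, at 182 ± 23.2 CPM. Far lower, and within their spread of each other, were hoxa4a (27.3 ± 13.7), hoxb1b (23.6 ± 12.1) and hoxb2a (23.0 ± 5.98). hoxb3a had its highest class level in cardiac and lateral plate mesoderm, at 416, 347, 179 and 415 CPM. It also had the highest mean in neurons, at 267 ± 46.6 CPM, with hoxb1b at 219 ± 69.1 and hoxc3a at 157 ± 36.9. The annotated span of hoxb3a overlaps those of hoxb4a, hoxb5a and hoxb6a, so reads of these genes may be divided among them or discarded, and the counting rule is not given in the sources used here. In all, 15 members share a span with another member in RefSeq.

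Trunk genes of the middle groups were led by hoxb7a, a group 7 gene of the trunk. It had the highest mean in tailbud (625, 496, 404 and 375 CPM in the controls), presomitic mesoderm (636, 443, 417 and 407) and posterior neural cells (470, 336, 289 and 267). In each of these classes the first tyr crispant, the only control in set A, was the highest of the 4. hoxc3a, a group 3 gene of the hoxca cluster, stood beside it with 470 ± 133 CPM in tailbud, 371 ± 70.6 in presomitic mesoderm and 318 ± 71.2 in posterior neural cells. That is a trunk and tail pattern for a gene of low number, and its span overlaps hoxc4a, hoxc5a, hoxc6a, hoxc8a and hoxc9a, so its UMIs may include theirs. hoxc6b, a group 6 trunk gene, had 193 ± 48.2 CPM in pronephros and 165 ± 81.3 in somite, where it came second to hoxb3a (205 ± 60.2). hoxc8a led group 8, with 118 ± 17.5 CPM in pronephros and 110 ± 9.62 in tailbud. hoxb5b led group 5 over all cells, with 20.1 ± 5.4 CPM, and was highest in posterior neural cells at 67.8 ± 11.8.

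The genes of groups 9 to 13 named next peaked in the tailbud, except for hoxb9a. hoxd9a, of group 9, reached 442, 374, 334 and 370 CPM there, hoxb10a 350 ± 52.8 and hoxa9a 325 ± 28.8. hoxb9a had its maximum in pronephros, where it was the leading member with 327 ± 56.0 CPM. Of the tail genes of groups 11 to 13, hoxd12a reached 78.2 ± 48.8 CPM in tailbud, hoxa11b 65.9 ± 22.6, hoxd11a 54.8 ± 18.2 and hoxa13b 51.6 ± 20.5. hoxd12a varied most among these, with 117 and 120 CPM in the tyr crispants and 19.5 and 56.7 in the wild types. The most abundant member of each group over all cells went from hoxb10a at 57.5 ± 17.3 CPM to hoxa11b at 11.8 ± 3.11, hoxd12a at 5.41 ± 3.14 and hoxa13b at 3.36 ± 0.909. hoxd13a stayed at 5.90 ± 4.13 CPM even in tailbud. hoxa13a was nearly silent, with 1.13 ± 0.823 CPM in tailbud and 122 UMIs in all 62385 cells. In levels over all cells, fewer cells of a type and less RNA per cell cannot be told apart.

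Some classes held clusters with different Hox codes. In notochord, the cluster with col8a1a and emilin3a among its leading genes had hoxb1b at 828 ± 173 CPM, hoxb3a at 287 and hoxc1a at 165. The cluster with noto and admp among its leading genes had hoxb7a at 374, hoxc3a at 345, hoxd9a at 198 and hoxb1b at 137. In posterior neural cells, 1 cluster had hoxb7a at 530 CPM, and the other had hoxb1b at 364, hoxb3a at 282 and hoxd4a at 250. Neural crest split in a cluster with hoxb3a at 450 ± 115 CPM and one with 17.1 ± 10.7. Within hindbrain, the cluster led by cyp26b1 had hoxa2b at 109 ± 38.3 CPM and hoxb3a at 227, with egr2b among its leading genes. The other hindbrain cluster had mafba, a regulator of rhombomeres 5 and 6, and also egr2b among its leading genes. It had hoxb3a at 237, hoxa4a at 88.0 and hoxd4a at 42.9.

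Placode clusters also differed: the one led by zgc:194210, atoh1b and gbx2 had hoxb1b at 146 ± 39.7 CPM and hoxb3a at 98.8 ± 14.8, while the one led by fezf1 and arl3l1 had hoxb1b at 18.3 ± 14.4. Among the 12 clusters left unnamed (too few markers, a second list with as many or more, or many doublets), the one with ripply3 and hmx3a among its leading genes had hoxb1b at 795 ± 239 CPM and hoxb3a at 674 ± 181. Group 4 genes were high in the unnamed cluster led by lbx1b, with hoxa4a at 275 ± 73.7 CPM and hoxd4a at 262 ± 78.7. The unnamed cluster with cyp26c1 and phox2a had hoxa2b at 66.6 ± 17.2 CPM as its leading member, and one with cebpd and apoc2 had hoxd9a at 273 ± 43.1. These clusters were picked after their values were seen.

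The sparsest members were hoxc12a, hoxc13b and hoxc12b, with 26, 29 and 33 UMIs over all 16 libraries. hoxa13a, hoxb13a, hoxa1a, hoxc13a, hoxc4a, hoxd13a, hoxa5a and hoxb4a had between 122 and 777 UMIs. The most abundant were hoxb1b (132656), hoxb7a (126099), hoxc3a (122861) and hoxb3a (111113).

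Copies of the same gene were unequal. Over all cells and all 16 libraries the a copy supplied 91.0% of the UMIs of the hoxc13 pair, 82.6% of hoxb8 and 62.3% of hoxa9, and was the higher copy in 16 of 16 libraries for each. It supplied 2.05% of hoxb1, 3.29% of hoxa13, 9.23% of hoxc6, 10.6% of hoxa11 and 37.0% of hoxc11, and was higher in 0 of 16. The sparse hoxc12 copies were close, with 44.1% from hoxc12a. The order of some copies differed between tissues. hoxb6a supplied 50.6% of its pair over all cells, but 88.8% in somite, where it was higher in 16 of 16 libraries, and 19.7% in floor plate, where it was higher in 0. hoxc11a supplied 87.0% in cardiac and lateral plate mesoderm, from 47 UMIs against 7, and was higher in 13 libraries. For hoxb5, hoxb5a supplied 35.2% over all cells and was higher in 1 library, but supplied 56.2% in tailbud and was higher there in 13. hoxb1a supplied 20.3% of the pair in hindbrain. These percentages describe libraries of all genotypes. Several of these copies share a span with another member: hoxb1b with hoxb5b and hoxb6b, hoxb5a and hoxb6a with hoxb3a, and hoxc6a with hoxc3a. The division of reads among overlapping genes may enter the shares of the hoxb1, hoxb5, hoxb6 and hoxc6 pairs, and was not tested.

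Genes that set or read Hox expression were also unevenly spread over the classes. A list of 54 regulators, cofactors and neighbours was used, of which 52 were in the feature table. cdx4, the caudal factor that activates posterior Hox genes, reached 2800 ± 325 CPM in tailbud, 1993 in presomitic mesoderm and 1657 in posterior neural cells. cyp26a1, which degrades retinoic acid, was at 492 ± 72.3 CPM in tailbud. aldh1a2, which makes it, was highest in somite at 328 ± 92.3. eve1, a homeobox gene of the even-skipped family, was at 322 ± 79.5 CPM in tailbud. The hindbrain regulators egr2b and mafba stood at 877 ± 324 and 539 ± 165 CPM in hindbrain. pbx4, a cofactor that binds DNA together with Hox proteins, was highest in cardiac and lateral plate mesoderm at 498 CPM.

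At 8 hpf, during gastrulation, few members were expressed in control embryos. The 48 genes summed to 69.1 CPM in the mCherry 125 pg library and 152 in the mCherry 40 pg library of xbp1 crispants. hoxb1b alone made up 81.1% and 79.2% of these UMIs, at 56.1 and 120 CPM. Its 12 hpf level over all cells was 117 ± 23.9 CPM, from 90.9 to 148 in the 4 controls, so that the mCherry 125 pg value lay below that range and the mCherry 40 pg value within it. hoxb7a was at 2.12 and 5.46 CPM against 117 ± 45.9 at 12 hpf, and hoxd9a at 0 and 0.0338 CPM against 76.2 ± 15. The stages were made as different library sets, so stage and set cannot be told apart.

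The early members already differed by class. Classes carry the names of the marker lists. The cluster named tailbud had 6 tailbud markers and 5 margin and ventrolateral mesoderm markers among its 50 leading genes. In the 2 mCherry libraries, in that order, hoxb1b led the tailbud (58.0 and 156 CPM), the floor plate (43.4 and 158) and the basal epidermis (20.8 and 132). hoxb7a led the presomitic mesoderm (17.0 and 31.6), hoxb3a the margin and ventrolateral mesoderm (6.46 and 10.8), and hoxc1a the notochord (8.93 and 15.7). hoxc8a was second in tailbud, at 12.3 and 24.0 CPM. In each of these the xbp1 crispant library was the higher.

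Injection of creb3l1-N and creb3l2-N mRNA came with large amounts of Hox transcript, led by a few genes of the hoxa and hoxd clusters. The 48 genes summed to 1332 CPM in the creb3l1-N library and 558 in the creb3l2-N library, against 152 in mCherry 40 pg, 137 in atf6-N, 109 in creb3l2-full and 69.1 in mCherry 125 pg. hoxa11b, hoxa4a, hoxa13a and hoxd11a together made up 79.1% of the Hox UMIs with creb3l1-N and 65.5% with creb3l2-N. Each group is 1 library, so nothing below has a replicate check, and every interval is an exact 95% interval for counting error only. The injected transcripts were seen at 237 CPM (creb3l1, at most 6.05 in the other libraries), 399 (creb3l2 with creb3l2-N), 72.4 (creb3l2 with creb3l2-full) and 413 (atf6). Libraries without that mRNA had creb3l2 at 8.76 to 18.5 CPM and atf6 at 48.6 to 103. Levels of an injected transcript, here and below, include the embryo's own transcript of that gene.

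hoxa11b, a group 11 gene that patterns fins and tail, had 0 UMIs in mCherry 125 pg, 1 in creb3l2-full, 1 in mCherry 40 pg, 0 in atf6-N, 55207 in creb3l1-N and 21933 in creb3l2-N. In creb3l1-N that is 773 CPM and in creb3l2-N 237 CPM, against 0.0169 in mCherry 40 pg. The ratios were 45715 (interval 8205 to 1.81e+06) and 14011 (2514 to 553430). Tailbud cells at 12 hpf, the highest class for this gene, had 65.9 ± 22.6 CPM.

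hoxa13a, a group 13 gene of the tail and fin ends, had 7799 UMIs (109 CPM) with creb3l1-N and 8214 (88.7 CPM) with creb3l2-N, against 2 in mCherry 40 pg. The ratios were 3229 (894 to 26668) and 2624 (726 to 21667). hoxa4a, a group 4 gene highest in posterior neural cells at 12 hpf, had 8804 and 2694 UMIs (123 and 29.1 CPM) against 3, with ratios of 2430 (831 to 11786) and 574 (196 to 2783). hoxd11a, of group 11, had 3403 and 1017 UMIs (47.6 and 11 CPM) against 0. Set against a floor of 3 counts in the control library, it was at least 939-fold and at least 217-fold higher. hoxa11b, hoxa13a, hoxa4a and hoxd11a each had at most 3 UMIs in either mCherry library.

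A second tier is given in UMIs of creb3l1-N and creb3l2-N against mCherry 40 pg. hoxa11a had 1234 and 508 against 1, ratios of 1022 (183 to 40393) and 325 (58.0 to 12843). hoxc10a had 1132 and 595 against 18, ratios of 52.1 (32.8 to 88.2) and 21.1 (13.2 to 35.9). hoxa9a had 696 and 151 against 10, ratios of 57.6 (31.2 to 121) and 9.65 (5.10 to 20.5). These are genes of groups 9 to 11, normally trunk and tail genes.

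hoxc13a, of group 13, had 491 and 278 against 16, ratios of 25.4 (15.5 to 44.8) and 11.1 (6.71 to 19.7). hoxc5a had 324 and 176 against 8, ratios of 33.5 (16.8 to 78.3) and 14.1 (6.98 to 33.1). Ratios were smaller for genes already present in the control, for hoxb7a 6.15 (5.47 to 6.93) and 2.96 (2.62 to 3.34), and for hoxc3a 8.23 (7.03 to 9.69) and 2.53 (2.14 to 3.01). hoxb1b, the main member of the control, had 7404 and 11415 UMIs against 7118, ratios of 0.861 (0.834 to 0.890) and 1.02 (0.994 to 1.06).

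Counted over members with at least 20 UMIs in the pair of libraries, 28 of 37 were at least 2-fold higher with creb3l1-N, where 13.1% of all genes counted the same way were. With creb3l2-N it was 17 of 33, where 15% of all genes were. The rule of 20 UMIs takes both libraries together. Members such as hoxa5a, hoxa9b and hoxa10b, with 0 UMIs in mCherry 40 pg, therefore entered only through the injected library and could only count as higher. The share of such genes among all genes is not given here, so these counts are descriptions, as are the counts of this kind below. No member was at least 2-fold lower in either library, where 3.7% and 7.73% of all genes were. Members with few UMIs in mCherry 40 pg could not count as lower, so this is no contrast with all genes. The 9 members with creb3l1-N that stayed under 2-fold were hoxb8a, hoxb9a, hoxb10a, hoxb1b, hoxb5b, hoxb6b, hoxb8b, hoxc8a and hoxc11a. Other hoxba members, hoxb2a, hoxb3a, hoxb5a, hoxb6a and hoxb7a, were at least 2-fold higher. The ratios of the 9 lay between 0.861 and 1.90, and 7 of the 9 belong to the hoxba and hoxbb clusters. With creb3l2-N the same members except hoxb10a (2.29) were under 2-fold. So were hoxb3a (1.25), hoxb5a (1.59), hoxb6a (0.552), hoxc1a (0.935), hoxc6a (1.42), hoxc9a (1.15) and hoxc6b (0.619), which with creb3l1-N had ratios of 2.55, 4.38, 2.11, 8.71, 2.74, 2.63 and 2.89. hoxc11b (1.49) was under 2-fold too and had fewer than 20 UMIs in the creb3l1-N pair. The intervals of hoxb6a (0.282 to 1.07) and hoxc6b (0.369 to 1.04) with creb3l2-N include equal levels. Both comparisons share the mCherry 40 pg library. The 7 members with fewer than 20 UMIs over all 6 libraries were hoxa1a, hoxa2b, hoxb1a, hoxc12b, hoxc13b, hoxd3a and hoxd13a.

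**Figure D3:**
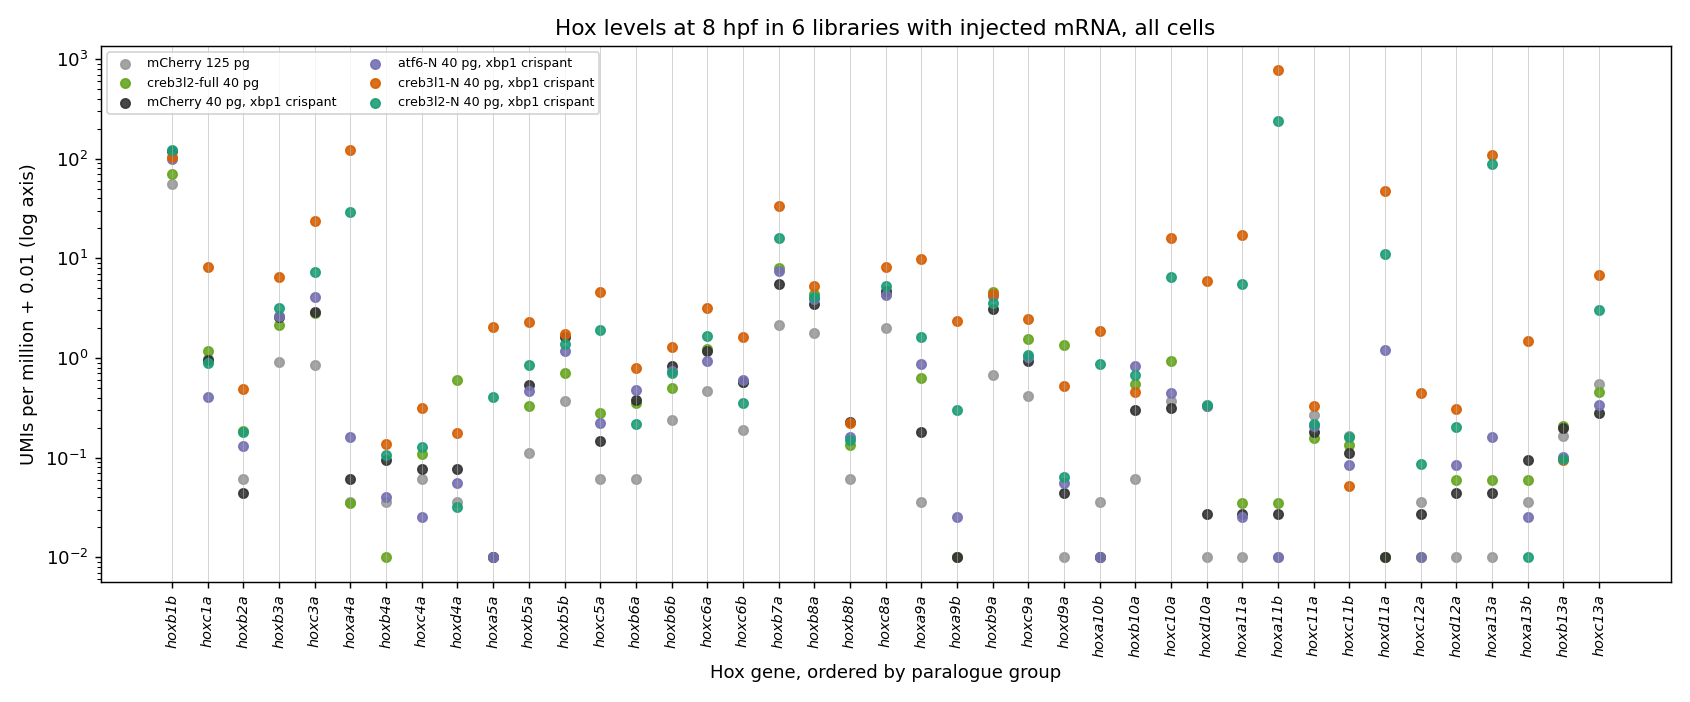
Level of the 41 Hox genes with at least 20 UMIs, as CPM + 0.01 on a log axis, in each of the 6 libraries at 8 hpf (colours), with genes ordered by paralogue group. In creb3l1-N and creb3l2-N, hoxa11b (773 and 237 CPM), hoxa13a, hoxa4a and hoxd11a stand far above the other 4 libraries, while hoxb1b stays between 56.1 and 123 CPM in all 6.

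The highest values belonged to single genes, but the neighbours named here were also above mCherry 40 pg. With creb3l1-N, hoxa11b had 55207 UMIs. Its hoxab neighbours had fewer: hoxa13b 105 (against 5 in mCherry 40 pg), hoxa10b 133 (against 0) and hoxa9b 167 (against 0). In hoxaa, hoxa4a (8804) and hoxa13a (7799) were both high. Between them lay hoxa5a (147 against 0), hoxa9a (696 against 10) and hoxa11a (1234 against 1). In hoxda, hoxd11a had 3403 UMIs, and its neighbours hoxd10a and hoxd12a had 427 (against 1) and 21 (against 2). The order of these values does not follow the paralogue number.

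Both constructs were led by hoxa11b but differed in level. Each was injected at 40 pg in xbp1 crispants, but the recovered creb3l2 transcript (399 CPM) was above the creb3l1 transcript (237). The ratio of creb3l1-N over creb3l2-N was 3.26 (3.21 to 3.31) for hoxa11b, 4.24 (4.06 to 4.42) for hoxa4a, 4.34 (4.04 to 4.66) for hoxd11a and 1.23 (1.19 to 1.27) for hoxa13a. It was larger for hoxd10a, with 427 against 30 UMIs (18.5, 12.7 to 27.7), and for hoxc1a, with 589 against 82 (9.31, 7.38 to 11.9). hoxa13b had 105 UMIs with creb3l1-N and 0 with creb3l2-N. hoxc11b ran the other way, with 3 against 14 UMIs (0.278, 0.0512 to 0.995). hoxd13a did so too, with 0 against 13.

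The transcripts were spread over many cells but concentrated in a few. A hoxa11b UMI was found in 1891 of 4011 cells (47.1%) with creb3l1-N and in 2095 of 4916 (42.6%) with creb3l2-N, at median depths of 16022 and 15205 UMIs per cell. After thinning each cell to 5000 UMIs, which left out 1385 and 1359 shallower cells, the shares were 32.2% and 32.4%. In periderm, an outer covering layer read here as a background class, 29.8% of 141 cells and 22.2% of 162 cells had a hoxa11b UMI at median depths of 1708 and 2106, and 0 in the periderm of the other 4 libraries. The injected transcript was itself present in these periderm cells, at 120 and 248 CPM, so they are no clean background, and the part of free RNA was not tested.

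Cells with at least 10 hoxa11b UMIs numbered 530 and 520, and 429 (80.9%) and 418 (80.4%) of these lay in 1 cluster each. The creb3l1-N cluster (556 cells) had creb3l1 at 791 CPM, hoxa11b at 3523, hoxa4a at 558, hoxa13a at 386 and hoxd11a at 229. The creb3l2-N cluster (537 cells) had creb3l2 at 1194 CPM, hoxa11b at 984, hoxa13a at 285 and hoxa4a at 124. Of their cells, 99.2% and 98.8% came from the library of that construct, and neither cluster was named. In the first, placode and head mesenchyme had equally many markers among the 50 leading genes, and in the second fewer than 3 markers of any list were detected. hoxb1b was low in the first, at 11 CPM.

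Across clusters of at least 50 cells, clusters with more of the injected transcript also had more of the leading Hox genes. Spearman's rho over 29 clusters with creb3l1-N was 0.828 for hoxa11b, 0.83 for hoxa13a, 0.792 for hoxa4a and 0.612 for hoxd11a. It was 0.470 for hoxb7a and -0.154 for hoxb1b. Over 22 clusters with creb3l2-N rho was, in the same order of genes, 0.903, 0.918, 0.856, 0.675, 0.342 and -0.176. The clusters share a library and its free RNA, so these values are descriptions. In the 14 clusters with creb3l1 under 50 CPM, hoxa11b ranged from 7.50 to 80.7 CPM with a median of 15.6, and in the 15 others from 20.2 to 3523 with a median of 99.0. With creb3l2-N the ranges were 7.34 to 17.8 in 7 clusters and 14.6 to 984 in 15. The 8 hpf cluster named tailbud belonged to the low clusters, with hoxa11b at 14.7 and 17.8 CPM at 18.9 CPM of creb3l1 and 37.0 of creb3l2. In the diencephalon cluster with creb3l1 at 143 CPM, hoxa11b was at 63.1 and hoxa13a at 50.2.

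**Figure D4:**
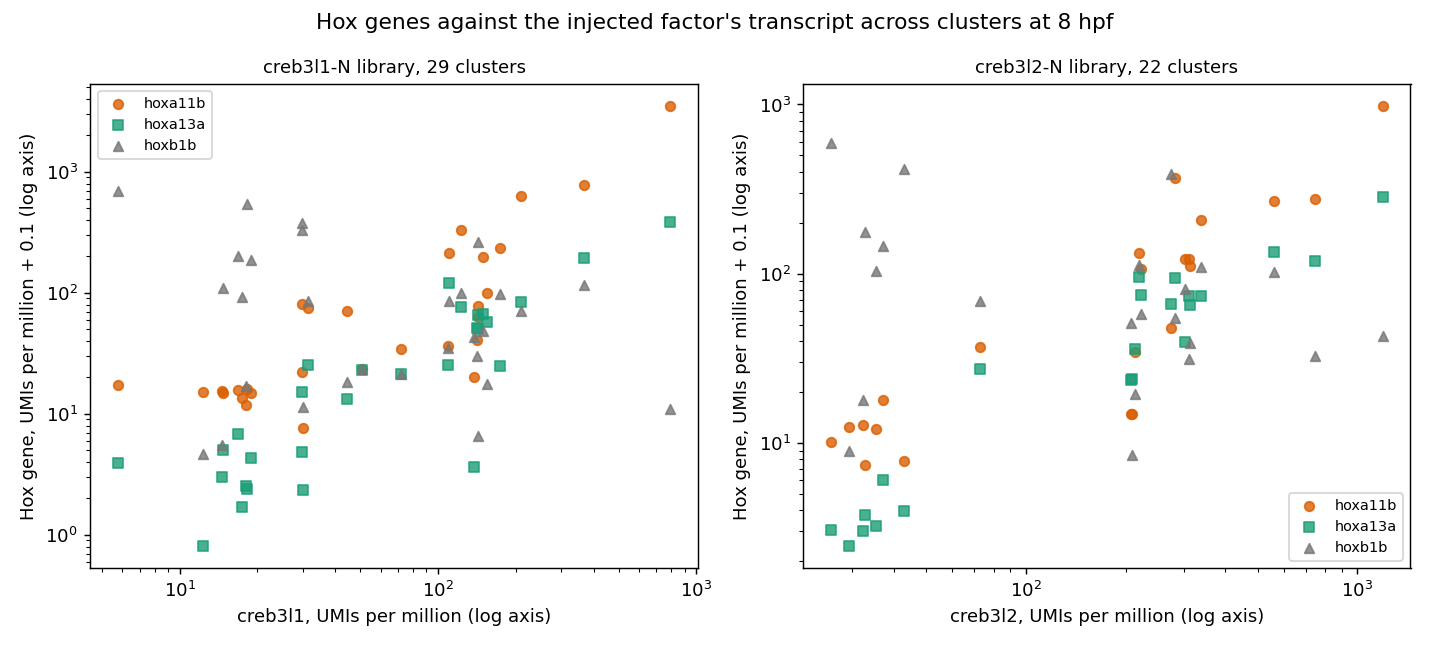
Level of hoxa11b, hoxa13a and hoxb1b (CPM + 0.1) against that of the injected transcript (CPM) in each cluster of at least 50 cells, on log axes, for creb3l1-N (29 clusters) and creb3l2-N (22 clusters). hoxa11b and hoxa13a are higher where the injected transcript is higher (Spearman's rho from 0.828 to 0.918), and hoxb1b is not (-0.154 and -0.176).

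hoxa11b was not found in quantity with atf6-N or creb3l2-full. With atf6-N it had 0 UMIs, and 4 of 24 members were at least 2-fold higher than in mCherry 40 pg, where 14.5% of all genes were. They were hoxd11a (79 UMIs against 0, at least 23.4-fold against a floor of 3 counts in the control library), hoxd10a (21 against 1, ratio 18.7, 3.01 to 773), hoxa9a (57 against 10, ratio 5.07, 2.57 to 11.1) and hoxb10a (55 against 17, ratio 2.88, 1.65 to 5.29). hoxc1a was lower, with 26 against 56 UMIs (0.413, 0.249 to 0.669), where 4.47% of all genes were at least 2-fold lower.

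With creb3l2-full, 15 of 19 members were at least 2-fold higher than in mCherry 125 pg, where 4.22% of all genes were. Most of these were also seen in the control library at a lower level: hoxb9a had 184 against 26 UMIs (6.86, 4.53 to 10.8), hoxb7a 320 against 83 (3.73, 2.93 to 4.81) and hoxc8a 176 against 77 (2.21, 1.68 to 2.93). hoxb1b, the main member of the control, stayed under 2-fold with 2833 against 2196 UMIs. Some were nearly absent from the control: hoxa9a had 25 UMIs against 1, hoxd4a 24 against 1 and hoxb10a 22 against 2. hoxd9a had 54 against 0, at least 17.4-fold against the same floor. hoxa11b had 1 UMI and hoxa13a 2. No member was at least 2-fold lower, where 2.41% of all genes were. Here too, members with few UMIs in the control library could not count as lower. The control libraries also differed from each other: in mCherry 40 pg of xbp1 crispants, 13 of 18 members were at least 2-fold higher than in mCherry 125 pg, where 6.35% of all genes were, hoxb9a by 4.66 (3.08 to 7.32) and hoxb7a by 2.58 (2.02 to 3.32), and 0 were at least 2-fold lower, where 4.61% of all genes were. Dose of mCherry, xbp1 status, stage at collection and library cannot be told apart there.

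Regulators of Hox genes were described by the same count. With creb3l1-N 4 of 44 genes of the list were at least 2-fold higher and 2 lower, beside 13.1% and 3.7% of all genes. With creb3l2-N it was 3 and 2 of 44, beside 15% and 7.73% of all genes. With creb3l1-N cdx4 had a ratio of 0.792 (0.781 to 0.803), aldh1a2 0.522 (0.504 to 0.541) and cyp26a1 0.895 (0.880 to 0.911). pbx3b, a Hox cofactor picked here after its values were seen, had 180 and 200 UMIs against 15 with creb3l1-N and creb3l2-N, ratios of 9.94 (5.87 to 18.1) and 8.52 (5.04 to 15.5). mafba had 38 and 34 against 74, ratios of 0.425 (0.280 to 0.637) and 0.294 (0.190 to 0.446).

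Loss of the 4 factors at 12 hpf was compared over all 16 libraries with edgeR's quasi-likelihood test, with a term for each loss and for the library set, in 21 classes with at least 20 cells in every library and over all cells. Over the classes 487 pairs of member and class passed the filter on low counts. After Benjamini-Hochberg adjustment over all genes of a class, edgeR called 0 pairs for loss of xbp1, 0 for atf6, 1 for creb3l1 and 0 for creb3l2, where 0.499%, 0.0139%, 0.779% and 0.169% of all genes were called. At an unadjusted p under 0.05 the counts were 81, 28, 64 and 39, or 16.6%, 5.75%, 13.1% and 8.01% of the pairs, beside 7.38%, 3.62%, 12.3% and 6.2% of all genes. DESeq2 called 0, 0, 2 and 0. Over all cells edgeR called 0 of 45 members for each loss, where 0.123%, 0.00559%, 2.54% and 0.0224% of all genes were called, and DESeq2 called 1 for creb3l1 and 0 for the others. At an unadjusted p under 0.05 there were 3, 1, 4 and 5 members, beside 1634, 495, 3325 and 1233 of 17878 genes. The labels do not say whether libraries came from separate clutches, so p-values measure only the spread between these samples.

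These counts depended on the filter. With no filter on low counts, edgeR called 50 of 937 pairs for xbp1 (1 higher, 49 lower), 15 for atf6 (15 higher, 0 lower), 42 for creb3l1 (4 higher, 38 lower) and 16 for creb3l2 (3 higher, 13 lower), or 5.34%, 1.6%, 4.48% and 1.71% of the pairs, beside 0.8%, 0.205%, 1.71% and 0.624% of all genes.

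The pair called was hoxc6a, a group 6 trunk gene, in presomitic mesoderm with creb3l1 loss, a fit in which 1.86% of all genes were called. Its lowest, median and highest levels were 12.4, 14.4 and 20.2 CPM in the 8 libraries without creb3l1 and 7.57, 10.3 and 12.2 in the 8 with it. The groups did not overlap, in set A (14 to 14.7 in 3 libraries against 10.1 to 12.2 in 5) or in set B (12.4 to 20.2 in 5 against 7.57 to 10.4 in 3). This pair was picked by the test on these same libraries, and the share of all genes that separate in this way is not given here. The separation is therefore a description and no further evidence. Levels by the status of 1 factor, here and below, are not adjusted for the other losses. Those losses were more frequent among libraries without creb3l1. The log2 changes by creb3l1 status come from the fit with a term for each loss. The means were 15.6 ± 2.64 and 10.2 ± 1.61 CPM and the log2 change 0.63 (SE 0.16, edgeR adjusted p = 0.0482). The call held without wild-type 1, the creb3l1 crispant or quadruple loss 1. It was lost without any other single library, with edgeR adjusted p of 0.0527 to 0.197. It was also lost with DESeq2 (adjusted p = 0.0563) and without the set term (0.139 with edgeR). hoxc6a shares its span with hoxc3a.

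hoxb5b, a group 5 gene of the anterior trunk that shares its span with hoxb1b, was near the threshold in posterior neural cells. It had 25.1, 44.0 and 69.5 CPM (lowest, median, highest) in the 8 libraries without creb3l1 and 54.2, 70.9 and 82.6 in the 8 with it. The groups overlapped, over all and within each set. The means were 47.6 ± 14.5 and 69.8 ± 9.94 CPM and the log2 change -0.73 (SE 0.17, edgeR adjusted p = 0.0504, DESeq2 adjusted p = 0.00403). The edgeR adjusted p was under 0.05 without the xbp1 crispant (0.0453), the atf6+creb3l2 double crispant in creb3l1 mutants (0.0456), wild-type 1 (0.0351) or the creb3l1 crispant (0.0413). Without creb3l1 mutant 1, its lowest library, the log2 change was -0.45 and the edgeR adjusted p 0.325. In notochord hoxb5b was at 6.97 ± 4.63 CPM against 16.3 ± 7.93, a log2 change of -1.80 (SE 0.46, edgeR adjusted p = 0.0764, DESeq2 0.0136). When 1 library was left out, the edgeR adjusted p there ran from 0.0478, without the xbp1 crispant, to 0.304. Under alternative settings with all libraries kept, the lowest edgeR adjusted p of hoxb5b was 8.56e-05 in posterior neural cells and 2.55e-05 in notochord. The highest were 0.051 and 0.0799.

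hoxd11a in tailbud, a group 11 tail gene, had 8.57 and 19.7 CPM in the quadruple losses, 53.1 and 15.3 in creb3l1 mutants, 28.1 and 59.8 in wild types and 68.2 and 63.3 in tyr crispants. The quadruple losses lay below the tyr crispants, with a log2 change of -2.38 (SE 0.55, edgeR adjusted p = 0.0885, DESeq2 0.398). With the library set as a term the edgeR adjusted p was 0.0658, and with the replicate number as a block 0.113. Over all alternative settings with every library kept, the lowest edgeR adjusted p was 2.58e-07. Leaving out 1 library at a time, which leaves 1 library in a group, the log2 change ran from -3.02 to -1.92. By creb3l1 status the means over all 16 libraries were 29.4 ± 20.2 without it and 61.4 ± 14.7 with it. These means are not adjusted for the other losses, and the fit gave a log2 change of -0.84 (edgeR adjusted p = 0.180). In set A the libraries without creb3l1 had 44.0 to 59.1 CPM and those with it 60.9 to 78.7. In set B the ranges were 7.82 to 27.6 and 28.1 to 63.3, so that neither set had an overlap. hoxd11a in tailbud was not among the pairs with the smallest p for creb3l1 loss. How many genes separate within both sets in this way is not given here, so the split is a description.

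**Figure D5:**
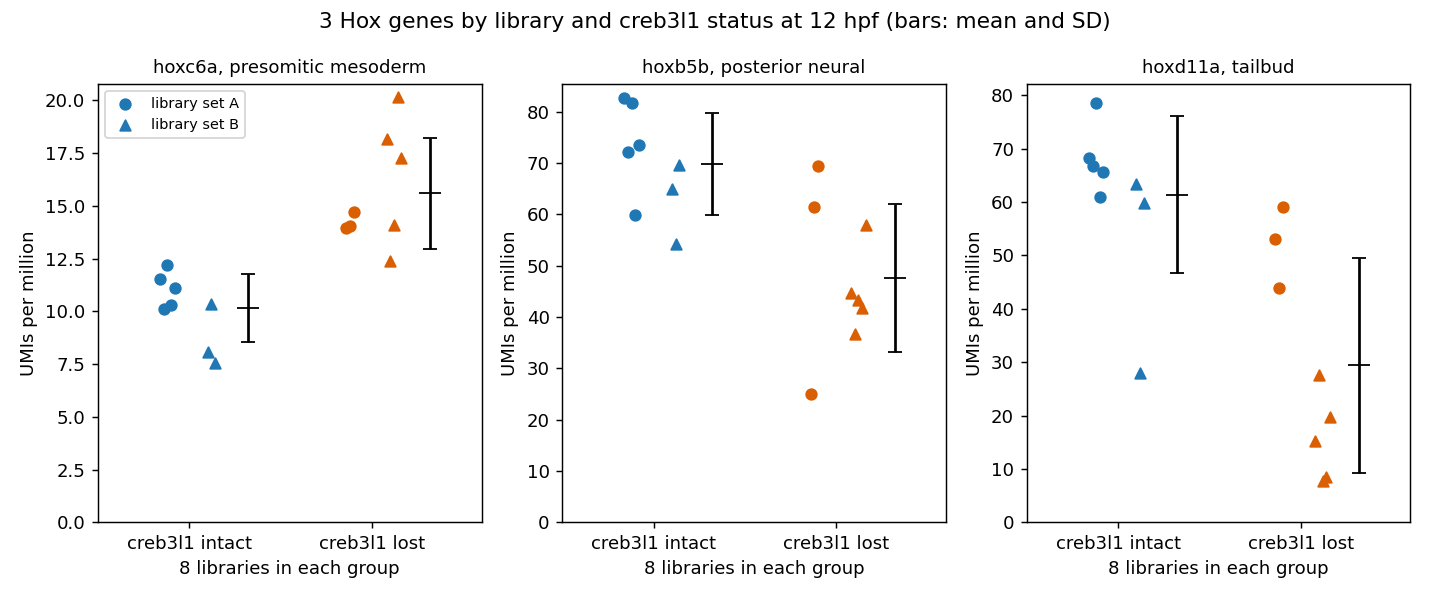
Level in CPM of hoxc6a in presomitic mesoderm, hoxb5b in posterior neural cells and hoxd11a in tailbud, 1 point per 12 hpf library by creb3l1 status (blue intact, orange lost; circles set A, triangles set B), with bars for mean and SD (n = 8 each). hoxc6a, picked by the test on these same libraries, is higher without creb3l1 with no overlap, and hoxb5b and hoxd11a are lower with overlap over the 16 libraries. Levels are not adjusted for the other losses, which were more frequent among libraries without creb3l1.

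hoxa11b, the leading gene after creb3l1-N injection, had 60.6 ± 20.3 CPM in tailbud without creb3l1 and 65.0 ± 15.4 with it (log2 change -0.08, edgeR adjusted p = 0.929, n = 8 and 8). In notochord it had 5.05 ± 3.04 and 10.8 ± 3.32 (log2 change -1.09, edgeR adjusted p = 0.248). The 3 pairs with the smallest p for each of the other losses missed the threshold in the main fit. With xbp1 loss they were hoxd9a in endoderm (log2 change -1.13, edgeR adjusted p = 0.538), hoxc10a in endoderm (-0.93, 0.598) and hoxd3a in tailbud (-0.46, 0.439). When 1 library was left out, the edgeR adjusted p of hoxd9a in endoderm ran from 0.00194, without quadruple loss 2, to 0.998. The hoxd9a levels were 55.2 ± 34.2 CPM without xbp1 and 114 ± 50.0 with it (n = 5 and 11), and overlapped. With creb3l2 loss they were hoxb9a in neurons (log2 change 0.51, edgeR adjusted p = 0.422) and hoxd9a in endoderm (0.94, 0.499) and floor plate (-0.63, 0.276). With atf6 loss all were in hatching gland, hoxb5b (log2 change 3.27, edgeR adjusted p = 0.547), hoxb1b (1.46, 0.599) and hoxc3a (1.58, 0.631). hoxb5b in hatching gland rests on the atf6 crispant with 17.2 CPM, and the tyr crispant 2 stood at 9.85, the other 14 libraries between 0 and 3.58.

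The groups with 2 libraries each were compared with tyr crispant in a fit of their own, over 451 pairs of member and class. That fit had no term for the library set. Both quadruple-loss and both wild-type libraries are in set B, while tyr crispants and creb3l1 mutants have 1 library in each set. Group and set are therefore partly mixed in the counts for the quadruple loss and wild type. edgeR called 0 for the quadruple loss, 0 for creb3l1 mutants and 0 for wild type, where 0.433%, 0.261% and 0.0901% of all genes were called. At an unadjusted p under 0.05 there were 103, 31 and 38 pairs, and DESeq2 called 3, 0 and 0. These are 22.8%, 6.87% and 8.43% of the pairs, beside 9.87%, 5.5% and 4% of all genes. Over all cells edgeR called 0 of 44 members in each, where 0.435%, 0.412% and 0.0744% of all genes were called, and DESeq2 called 1, 1 and 0. At an unadjusted p under 0.05 there were 7, 1 and 1 members, beside 2097, 1365 and 499 of 17480 genes. The member with the DESeq2 call in creb3l1 mutants was hoxb5b, with a log2 change of -1.06 (edgeR adjusted p = 0.216, DESeq2 0.0427). Over all cells the median log2 change of the members was -0.36, -0.16 and -0.44, beside -0.01, 0.02 and -0.02 over all genes. The wild types, which carry no loss, had the lowest of these medians, and the 3 contrasts share the tyr crispant libraries. With the library set as a term the members' medians were -0.19, -0.17 and -0.23.

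Other low values in the quadruple loss rest on few UMIs. hoxc10a in pronephros had 2.57 and 2.95 CPM (3 and 1 UMIs) against 26.3 and 27.2 in tyr crispants (log2 change -3.38, SE 0.62, edgeR adjusted p = 0.0692, DESeq2 0.170). Its edgeR adjusted p was 0.201 with the library set as a term, and its log2 change ran from -3.43 to -3.32 when 1 library was left out. The lowest edgeR adjusted p over the alternative settings with every library kept was 0.0011. hoxa9a in cardiac and lateral plate mesoderm had 4.68 and 1.93 CPM against 40.1 and 61.6 (-3.87, SE 0.86, edgeR adjusted p = 0.209, DESeq2 0.325). Its edgeR adjusted p was 0.260 with the library set as a term, and its log2 change ran from -4.85 to -3.51 when 1 library was left out. The lowest over the alternative settings with every library kept was an edgeR adjusted p of 2.87e-08. Wild-type 1, with no loss, also stood low for hoxa9a there, at 4.71 CPM, and wild-type 2 at 53.6.

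Several members differed between the library sets, chosen here after their values were seen. hoxb3a in posterior neural cells ranged from 120 to 181 CPM in set A (mean 156) and from 194 to 280 in set B (235), with no overlap. hoxd10a in tailbud had means of 110 and 52.4, hoxd3a in posterior neural cells 41.6 and 22.2, and hoxd11a there 22.9 and 6.80, also with no overlap. How many of all genes separate the sets in this way is not given here. The sets hold different genotypes and depths, and were written by different Cell Ranger versions (3.1.0 for A, 6.1.2 for B). hoxb3a and hoxd3a also share spans with other members. Which of these goes with the differences was not tested.

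Of the regulator list, 784 pairs were tested for the losses and edgeR called 1 higher with atf6 loss and 1 higher and 1 lower with creb3l1 loss, where 0.0139% and 0.779% of all genes were called. irx7, an Iroquois factor of the midbrain and hindbrain, was higher in basal epidermis with creb3l1 loss (56.5 ± 24.8 against 19.4 ± 9.25 CPM, n = 8 and 8, log2 change 1.36, SE 0.23, edgeR adjusted p = 0.0118), with groups that overlapped. The call was lost without creb3l1 mutant 1 or the creb3l2 crispant (edgeR adjusted p up to 0.113). egr2b, a rhombomere 3 and 5 gene, was higher in floor plate with atf6 loss (3.52, edgeR adjusted p = 0.0185), with 120, 46.0 and 43.8 CPM in 3 of the 5 libraries without atf6 but 19.7 and 1.67 in the quadruple losses. That call was lost without any 1 of 7 libraries, among them the atf6 crispant (edgeR adjusted p = 0.315), and held without any of the other 9. egr2b was lower in hatching gland with creb3l1 loss (-3.40, edgeR adjusted p = 0.0325), where wild-type 2, tyr crispant 2 and the creb3l2 crispant held 51, 60 and 25 UMIs and no other library more than 4. That call was lost without any 1 of 6 libraries, those 3 included (edgeR adjusted p up to 0.184). In the quadruple loss edgeR called 2 of 764 pairs of the list, where 0.433% of all genes were called. cyp26a1 was higher in telencephalon (63.0 and 54.7 CPM against 5.98 and 3.60 in tyr crispants, log2 change 3.58, edgeR adjusted p = 0.0163). aldh1a2 was higher in presomitic mesoderm (184 and 131 against 41.4 and 41.5, log2 change 1.78, edgeR adjusted p = 0.0376). Wild types stood at 125 and 81.9 CPM for aldh1a2 there. Both calls were lost without any 1 of the 4 tyr crispant and quadruple libraries, with edgeR adjusted p up to 0.241 for cyp26a1 and 0.412 for aldh1a2. With the library set as a term the edgeR adjusted p were 0.0467 and 0.0624, and with the replicate number as a block 0.0747 and 0.0512.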

How the data were processed

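Single-cell 3' RNA libraries (10x Genomics V3) of whole zebrafish embryos were deposited as gene by barcode matrices of raw UMI counts, written by Cell Ranger 3.1.0 (8 libraries, set A) or 6.1.2 (14 libraries) per the file headers. Genome build and annotation are not given in the sources used here. Barcodes with at least 1000 UMIs and at most 10% mitochondrial UMIs were kept, and doublets were removed at 0.8% per 1000 barcodes. Cells were clustered per stage (scanpy 1.11.5, 2000 variable genes, 40 components, Leiden resolution 2) without Hox, mitochondrial, ribosomal protein or targeted genes, and clusters were named from marker lists. UMIs were summed per library and class. The 12 hpf sums were tested with edgeR 4.0.16 (TMM, filterByExpr, quasi-likelihood, two-sided, Benjamini-Hochberg over all genes of a fit, threshold 0.05), with DESeq2 1.42.0 as an alternative, after the edgeR script had been tested on simulated data. With a simulated loss of xbp1, edgeR recovered 14% of 1.5-fold and 80% of 2-fold changes over all cells. In posterior neural cells it recovered 34% and 80%, so a count of 0 calls can miss changes of this size. At 8 hpf each group is 1 library, so ratios carry exact conditional binomial 95% intervals and no test.

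The members and lists were chosen with earlier results of these data known. Genes named include the members called for a loss in a class or over all cells and the 3 pairs with the smallest p per loss. Others were drawn from the 3 highest members of each class and from members with at least 20 UMIs at 8 hpf, without naming all of them. Also named are the highest of each paralogue group, duplicate pairs, regulators called, and cdx4, aldh1a2, cyp26a1, mafba, egr2b and pbx4. Where values were lengthy, members are given by range. Cluster values, cells by hoxa11b UMIs and set differences were chosen after seeing the values.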

Additional observations from a re-analysis of the deposited data

Results flagged for a closer look

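The summed Hox level of tyr crispant 1 stood apart from the other 3 control libraries in 2 of the 21 classes tested this way. In posterior neural cells it was 3357 CPM and the nearest control 2743, a gap of 0.862 of the whole range. In somite it was 1495 CPM and the nearest control 930, a gap of 0.83, just past the limit that Dixon's test sets at the 95% level. Chance flags about 1 in 20 groups. tyr crispant 1 is the only control in set A, so library and set cannot be told apart.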

How the results depend on the processing

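Results of 329 comparisons of a count or class level with an alternative stayed within 1.5 times, or within the spread, in 289 cases and moved in 40. With no filter on low counts, edgeR called 50 pairs of member and class for xbp1, 15 for atf6, 42 for creb3l1, 16 for creb3l2, 64 for the quadruple loss, 5 for creb3l1 mutants and 6 for wild type, and 1 for the quadruple loss over all cells. The last 3 class counts are 6.99%, 0.546% and 0.655% of 916 pairs, beside 1.35%, 0.66% and 0.269% of all genes; the cause was not tested, and the simulated data were run with the filter only. DESeq2 called 2 for creb3l1 (1 over all cells), 3 for the quadruple loss (1 over all cells) and 1 for creb3l1 mutants over all cells. With doublets kept edgeR called 2 for creb3l1. Leaving out 1 library, the counts over classes ranged from 0 to 1 for xbp1, 0 to 4 for creb3l1 (0 to 1 over all cells), 0 to 17 for the quadruple loss, 0 to 4 for creb3l1 mutants and 0 to 1 for wild type. The 17 came without creb3l1 mutant 1 and also without creb3l1 mutant 2, and 4 without either wild-type library. For creb3l1, 4 came without the creb3l1 crispant and 3 without wild-type 1. The 4 for creb3l1 mutants came without creb3l1 mutant 1. The summed level of head mesenchyme, 88.6 CPM, was 122.5 with doublets kept and 161 over all 16 libraries. Of 92 values of single genes under alternatives, 0 reversed, 17 lost and 21 gained a call.

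Replicate numbers did not pair the libraries across all groups: correlations of same-numbered deviations ran from -0.597 to 0.471. For tyr crispant and creb3l1 mutant, replicate 1 is in set A and replicate 2 in set B, and the correlation was 0.403. With the replicate block edgeR called 0 pairs in each comparison with tyr crispant. At 8 hpf, members at least 2-fold higher numbered 28, 29, 28 and 23 for creb3l1-N (UMI totals, TMM totals, doublets kept, at least 50 UMIs), 17, 17, 17 and 13 for creb3l2-N, 4, 4, 4 and 3 for atf6-N, and 15, 15, 15 and 10 for creb3l2-full.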
